A study of Mus musculus with 4 samples.

Results

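The genes described here encode 10 factors that find the branch site and the 3′ splice site of an intron: the U2AF heterodimer (U2af1, U2af2), the related factor Puf60, the branch point binding protein Sf1, the SF3a subunits Sf3a1, Sf3a2 and Sf3a3, and the SF3b subunits Sf3b1, Sf3b2 and Sf3b3. They were chosen by symbol, and all 10 were found among the 22667 genes of the expression table. In the splicing tables, 66 of 91656 alternative splicing events lie in these genes. All samples are Neuro-2a (N2a) cells, a mouse neuroblastoma line. Cells carried either a control siRNA (siControl) or siRNA against Arglu1 (siArglu1) for 48 h, and were then kept for 4 h with ethanol vehicle (Veh) or with the synthetic glucocorticoid dexamethasone (Dex) at 100 nM. Each siRNA was combined with each treatment, which gives 4 groups. RNA of 3 cultures was pooled within each group into 1 polyA-enriched library, so no group has replicates, and every interval given here covers counting error only.

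During assembly of the spliceosome, SF1 binds the branch point sequence, U2AF2 binds the polypyrimidine tract and U2AF1 contacts the AG at the end of the intron. SF1 then leaves as the U2 snRNP pairs with the branch site, and SF3a and SF3b, the protein complexes of that snRNP, hold the pairing in place, with SF3B1 close to the branch point adenosine. PUF60 is a paralog of U2AF2 that also binds pyrimidine-rich RNA. ARGLU1 is an arginine and glutamate rich nuclear protein, and its depletion was combined with Dex to ask what it does in transcription and in splicing.

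Arglu1 itself, which checks the labels, had levels of 92.6 and 99.9 cRPKM in siControl Veh and Dex, against 23.8 and 22.6 in siArglu1 Veh and Dex. The cRPKM is a read count per kilobase of uniquely mappable sequence, corrected for library size. Reads on genes ranged from 66074574 to 86541444 per library. Of 11 genes typical of N2a or sympathetic neuroblasts, 9 had at least 1 cRPKM in every library, whereas Nefl and Nefm were at or near 0. Their summed level was 1342 and 1274 cRPKM in siControl Veh and Dex, and 1881 and 1766 cRPKM in siArglu1 Veh and Dex. Tubb3, Stmn2, Hand2 and Gap43 make up most of this sum. Th went the other way, at 2.58 and 4.71 cRPKM in siControl and 1.05 and 2.54 in siArglu1. The 16 markers of fibroblasts, immune, epithelial and glial cells summed to between 3.44 and 4.22 cRPKM, and Emr1 was at 0 reads throughout. The part of the difference in neuroblast markers in the values below was not tested, and in bulk RNA fewer cells of a type and less RNA per cell cannot be told apart.

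The 10 factors were all abundant. U2af1 stood highest, at 272 and 269 cRPKM in siControl Veh and Dex and at 285 and 257 cRPKM in siArglu1 Veh and Dex, the order kept below. Its range did not overlap that of the next gene. Puf60, U2af2 and Sf3b3 followed with means over the 4 libraries of 172, 169 and 168 cRPKM and overlapping ranges. Sf1, Sf3b2, Sf3a3, Sf3a2 and Sf3b1 came next, with means from 93.9 down to 66.6 cRPKM, and each overlapped its neighbour in this order. Sf3a1 was lowest at a mean of 36.8 cRPKM, below all other members in every library. Even so, 75% of the 12497 genes compared had a lower level than Sf3a1 in siArglu1 Veh, the library in which Sf3a1 was lowest.

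**Figure D1:**
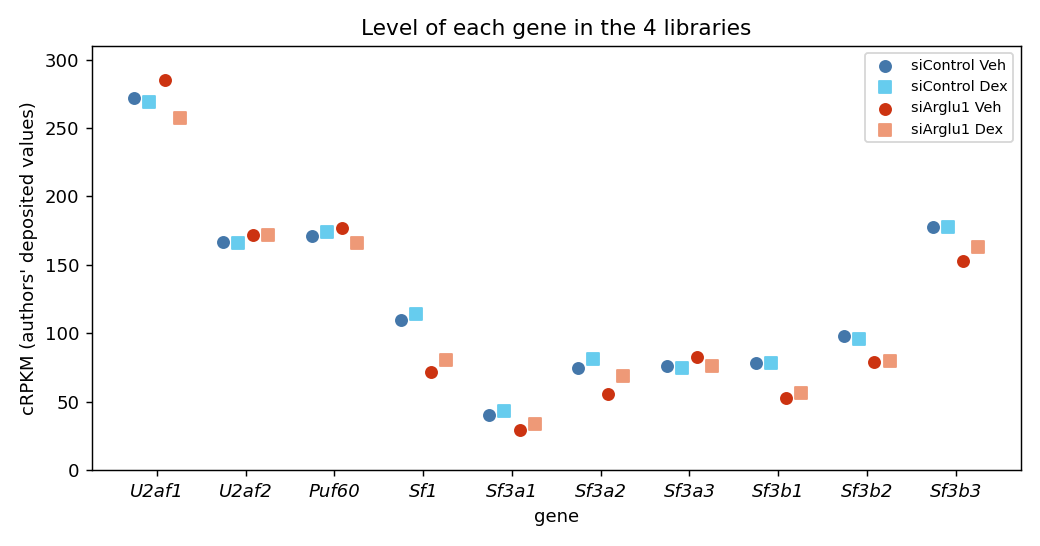
Level of each factor (horizontal axis, gene) in cRPKM (vertical axis, from 0) in the 4 libraries, 1 point per library. The siArglu1 points of Sf1, Sf3a1, Sf3a2, Sf3b1, Sf3b2 and Sf3b3 lie below both siControl points, whereas those of U2af1 and Puf60 lie on either side of them.

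The first comparison asked how the factors differed between siArglu1 and siControl, once in vehicle and once in Dex; these pairs share no library. None of the 10 factors reached a log2 ratio of 0.81, the size used for knockdown, in either pair. Among all 12497 genes with at least 75 reads in total, 15.8% passed this size in vehicle and 12.1% in Dex. In scaled reads, both siArglu1 libraries were below both siControl libraries for 6 factors (Sf1, Sf3a1, Sf3a2, Sf3b1, Sf3b2 and Sf3b3), above them for U2af2 and Sf3a3, and overlapping for U2af1 and Puf60. The same separation downward was seen in 40.4% of all genes, and upward in 41.4%. The median log2 ratio of the 10 factors was −0.24 in vehicle and −0.19 in Dex, and that of all genes was 0.00 in both.

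Sf1 showed the widest difference. It had 110, 114, 71.5 and 80.6 cRPKM, with both siArglu1 libraries well under the siControl ones. Its log2 ratio was −0.59 in vehicle (95% counting interval −0.61 to −0.56), or 66.5% of the siControl level, and −0.50 in Dex (−0.53 to −0.48). In vehicle, 14.9% of all genes had a log2 ratio as low or lower. The 3 genes whose scaled reads over the 4 libraries were most like those of Sf1 among 10701 genes with a mean of at least 1 cRPKM were Ctnna2, Zscan29 and Urb2, at Euclidean distances of 0.0286, 0.0286 and 0.0309 on the centred log2 scale.

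The U2AF subunits and Puf60, which read the 3′ end of the intron, differed little. U2af2 had 167, 166, 172 and 172 cRPKM, and its log2 ratio was 0.08 in vehicle and 0.04 in Dex. U2af1 was at 0.10 (0.07 to 0.13) in vehicle and −0.08 (−0.11 to −0.05) in Dex. Puf60, at 171, 174, 177 and 166 cRPKM, likewise had 0.08 (0.05 to 0.11) and −0.07 (−0.10 to −0.05). For U2af1 and Puf60, the siArglu1 Dex library was the lowest and siArglu1 Veh the highest of all 4. The cRPKM ratio of Sf1 to U2af2 went from 0.661 in siControl Veh to 0.415 in siArglu1 Veh, and from 0.684 to 0.469 in Dex. This comparison within each library does not depend on the scaling, but it is not free of the trend on length described below. In vehicle, genes of like length to Sf1 had a median log2 ratio of −0.18, and those of like length to U2af2 had 0.10.

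Within SF3a, the 3 subunits did not move together. Sf3a1, the subunit with SURP and ubiquitin-like domains, had 40.5, 43.5, 29.5 and 33.8 cRPKM. Its log2 ratio was −0.42 (−0.46 to −0.39) in vehicle and −0.37 (−0.40 to −0.34) in Dex. Sf3a2, a zinc finger subunit, had 75, 81.2, 55.4 and 68.7 cRPKM and ratios of −0.40 and −0.25. By contrast, Sf3a3, the other zinc finger subunit, had 75.9, 74.5, 82.7 and 76 cRPKM, and its ratios were 0.16 (0.12 to 0.20) in vehicle and 0.02 (−0.02 to 0.06) in Dex. Sf3a2 and Sf3a3 were thus at nearly the same level in siControl Veh, with a ratio of 0.988, and apart in siArglu1 Veh, at 0.67; in Dex this ratio was 1.09 in siControl and 0.904 in siArglu1. Sf3a1 over Sf3a2 stayed between 0.493 and 0.54 in all 4 libraries. These genes differ in length, at 4.87 kb and 1.74 kb. With the trend on length described below removed, Sf3a1 was at −0.19 and Sf3a2 at −0.57 in vehicle. In Dex they were then at −0.26 and −0.35.

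Within SF3b, all 3 subunits were lower in siArglu1, by unequal amounts. Sf3b1, the HEAT repeat protein that clamps the branch helix, had 78.3, 78.5, 53 and 56.4 cRPKM, and log2 ratios of −0.53 (−0.56 to −0.51) and −0.48 (−0.51 to −0.46). Sf3b2, which binds near the branch site, had 98.2, 96.2, 78.8 and 79.5 cRPKM and −0.28 in both pairs. Sf3b3, a beta-propeller scaffold, had 178, 178, 153 and 163 cRPKM and ratios of −0.19 and −0.14. The siControl and siArglu1 levels of each subunit were separate, and the order Sf3b3, Sf3b2, Sf3b1 was the same in every library. Sf3b1 over Sf3b3 was 0.44 and 0.441 in siControl and 0.347 in both siArglu1 libraries. Sf3b1 is the longer of the pair, at 6.14 kb against 4.25 kb, so this ratio is not free of the trend on length either.

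**Figure D2:**
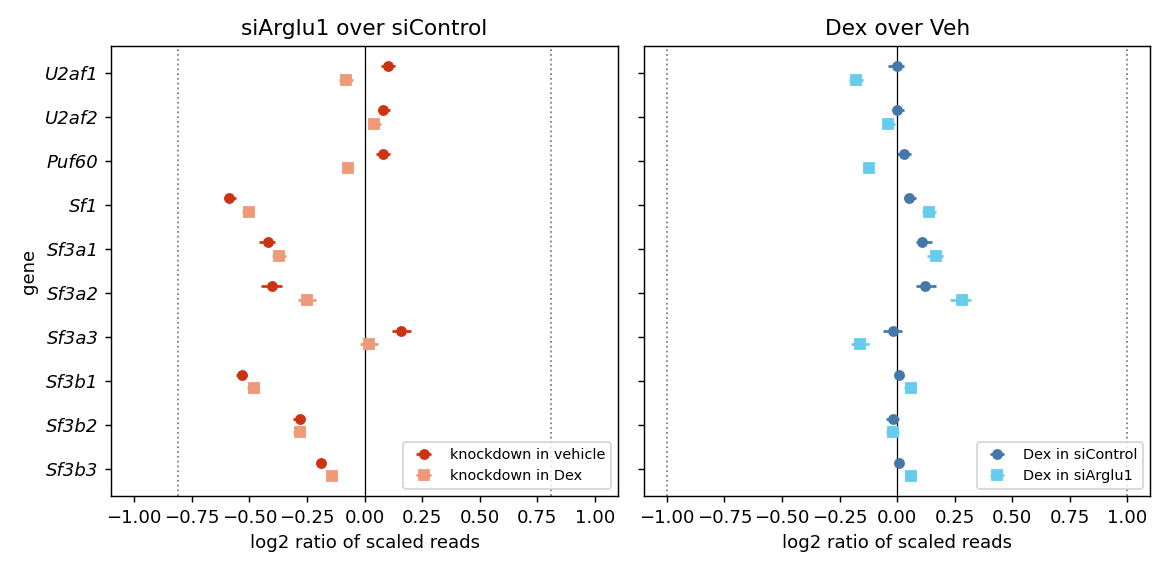
Log2 ratio of scaled reads (horizontal axis) for each factor (vertical axis, gene), with siArglu1 over siControl on the left and Dex over Veh on the right; bars are 95% counting intervals, often smaller than the points, and dotted lines mark the sizes of 0.81 and 1. No point reaches a dotted line; Sf1 and Sf3b1 lie farthest to the left in both knockdown pairs.

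The log2 ratios of the factors ran with the length of their mRNAs. The mappable length estimated from reads and cRPKM went from 0.858 kb for U2af1 to 6.14 kb for Sf3b1. Across all 12484 genes with such an estimate, Spearman's rho between length and log2 ratio was −0.398 for knockdown in vehicle and −0.229 for knockdown in Dex. Across the 10 factors it was −0.733 and −0.673, a description over genes that share the same libraries. Sf1 (4.3 kb), Sf3a1 (4.87 kb) and Sf3b1 are long and had ratios of −0.37 or lower in both pairs, whereas U2af2 (2.14 kb), Puf60 (1.86 kb) and Sf3a3 (1.77 kb) are shorter and lay between −0.07 and 0.16. Sf3b3, at 4.25 kb, is as long as Sf1 but was at −0.19 and −0.14, and Sf3a2, at 1.74 kb, is short but was at −0.40 and −0.25. The 1142 genes closest in length to Sf3b1 had a median log2 ratio of −0.35 in vehicle, against −0.53 for Sf3b1. For Sf1 the median of 2165 such genes was −0.18, and for U2af1 the median of 611 was 0.32, against its own 0.10.

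With the trend on length removed, all 10 factors had ratios below 0 in both pairs, as did 43.8% of all genes, and none was past 0.81. In vehicle, Sf3a2 was then the lowest at −0.57, followed by Sf1 at −0.41. Sf3b2 at −0.23 and U2af1 at −0.22 came next, and Sf3b1 and Sf3a1 were both at −0.19. In Dex, Sf1 was the lowest at −0.42, followed by Sf3a2 at −0.35 and Sf3b1 at −0.32. Sf3a1 and Sf3b2 were both at −0.26, and U2af1 was at −0.23. Sf3b3 came close to 0, at −0.01 in vehicle and −0.06 in Dex. Sf3a2 lies close in length to Sf3a3, which was at −0.00 in vehicle and −0.07 in Dex after this step. The sign of U2af1, U2af2, Puf60 and Sf3a3 in vehicle, and of U2af2 and Sf3a3 in Dex, turned with this step.

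**Figure D3:**
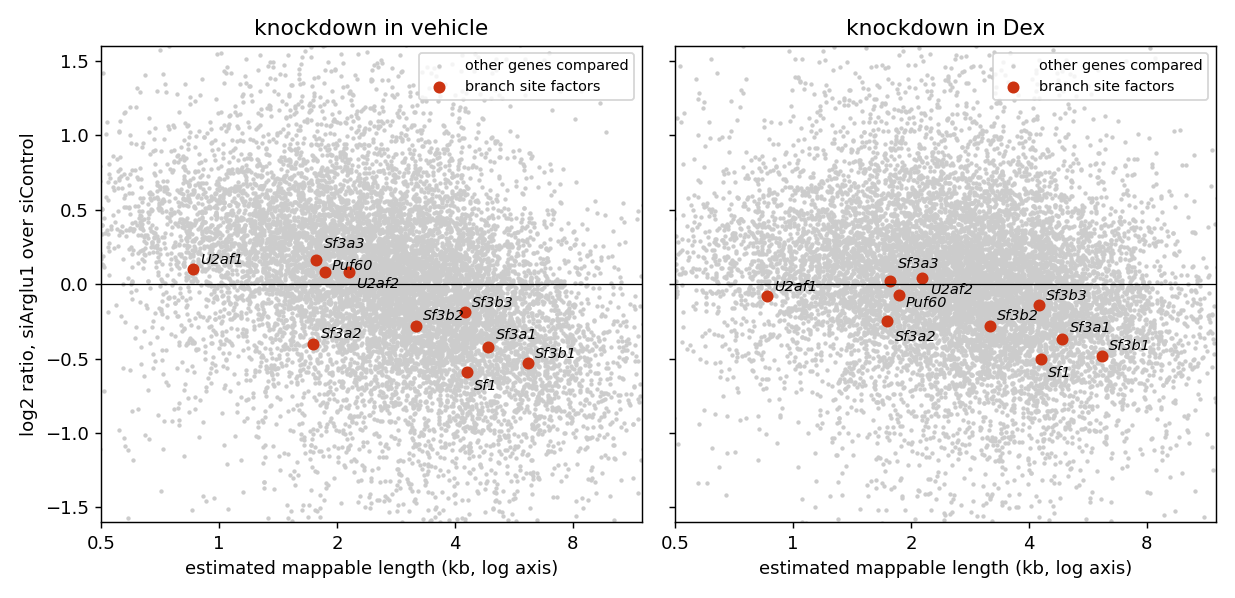
Log2 ratio of siArglu1 over siControl (vertical axis) against estimated mappable length in kb (horizontal axis, log scale), in vehicle (left) and in Dex (right); grey points are the other genes compared, red points the 10 factors. Sf1, Sf3a1 and Sf3b1 sit among long genes, whose ratios lie lower as a whole, and Sf3a2 lies below most genes of its length.

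An additive model of knockdown and Dex over the 4 libraries, fitted with edgeR's quasi-likelihood test to all genes and with 1 residual degree of freedom, called 61.6% of genes for knockdown at an adjusted p of 0.05, and 30.9% as lower. Of the 10 factors it called 5, all lower: Sf1 (log2 −0.55, adjusted p = 5.8e-09), Sf3b1 (−0.51, 6.9e-08), Sf3a1 (−0.40, 1.3e-05), Sf3a2 (−0.33, 0.00038) and Sf3b2 (−0.28, 0.0025). Sf3b3 was at −0.16 with an adjusted p of 0.11, and U2af1, U2af2, Puf60 and Sf3a3 had adjusted p of 0.91, 0.54, 0.98 and 0.37. The model draws its error from differences between the 2 knockdown pairs, but shares this error over all genes. Its adjusted p therefore does not measure how well the 2 pairs agree for a single gene. Pooled cultures enter as single libraries, so the spread between cultures is not measured either.

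The second comparison asked how the factors differed after 4 h of Dex. None reached a log2 ratio of 1, the size used for Dex, in siControl or in siArglu1, where 0.464% and 0.392% of all genes did. In siControl the 10 factors lay between −0.02 and 0.12. The highest were Sf3a2 at 0.12 (0.08 to 0.17) and Sf3a1 at 0.11 (0.08 to 0.15), and the intervals of U2af1, U2af2, Sf3a3, Sf3b1, Sf3b2 and Sf3b3 included 0. In siArglu1 the range was wider, from −0.18 for U2af1 (−0.21 to −0.15) to 0.28 for Sf3a2 (0.23 to 0.32), with Sf3a3 at −0.16 and Sf1 at 0.14. Across all genes, Spearman's rho of this log2 ratio on length was 0.543 in siArglu1 and −0.163 in siControl. With the trend on length removed, U2af1 was at −0.02, Sf3a3 at −0.08 and Sf1 at 0.06, whereas Sf3a2 was at 0.36. The additive model called none of the 10 factors for Dex (1 had an unadjusted p under 0.05), and 1.04% of all genes.

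To place the 10 factors among their partners, 30 of 31 other genes of the U2 snRNP and the branch site step were compared in the same way; Rbm23 was not matched. Ddx42, a DEAD-box helicase that associates with SF3b, was the only one past 0.81. It had 56.2, 54.5, 29.5 and 30.7 cRPKM, and fell in both pairs, with log2 ratios of −0.90 and −0.84. In both pairs together, 5.07% of all genes were lower by this size. With the trend on length removed, Ddx42 was at −0.75 and −0.77, under the size used, and Uhmk1, a kinase that phosphorylates SF1, was past it at 0.97 and 0.94. In scaled reads without that step, Uhmk1 was at 0.55 and 0.74.

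Of the other SF3b subunits, Sf3b5, Phf5a and Sf3b6 had ratios above 0 in vehicle, unlike Sf3b1, Sf3b2 and Sf3b3. Sf3b5 had 127, 132, 217 and 188 cRPKM and log2 ratios of 0.81, just under the size used, and 0.50. Phf5a, the small subunit next to Sf3b1 at the branch adenosine pocket, had 159, 169, 269 and 243 cRPKM and ratios of 0.79 and 0.52. Both transcripts are short, at 0.684 kb and 0.815 kb. The 611 genes of like length to U2af1, at 0.858 kb, had a median log2 ratio of 0.32 in vehicle. Sf3b6 (1.06 kb), which contacts the branch adenosine, was at 0.39 and 0.12. Sf3b4 (0.448 kb) was at 0.17 (−0.08 to 0.42) and −0.03 (−0.26 to 0.19), on 250 to 361 reads per library. The part of length in the contrast with Sf3b1, Sf3b2 and Sf3b3 was not tested. Of the U2 snRNP proteins, Snrpb2 was at 0.52 and 0.28 and Snrpa1 at 0.28 and 0.09.

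Several helicases and regulators of the step had lower levels in siArglu1. Ddx46, the ortholog of yeast Prp5, was at −0.60 in vehicle and −0.54 in Dex. Rbm5, a regulator of 3′ splice site choice, was at −0.61 and −0.56, and Rbm39, a U2AF2-related factor, at −0.41 and −0.48. Among those higher in siArglu1, Dnajc8 was at 0.63 and 0.49, Zrsr2 at 0.36 and 0.30, and U2af1l4 at 0.32 and 0.13. Of the 30 genes, 18 had both siArglu1 libraries below both siControl libraries, 11 had both above, and 1 overlapped; over all genes the shares are 40.4% below and 41.4% above. The median log2 ratio was −0.07 in vehicle and −0.17 in Dex, and Spearman's rho on length across the 30 was −0.569 and −0.428. With the trend on length removed, 15 were above 0 and 15 below in vehicle, with a median of 0.00. In Dex, 9 were then above and 21 below, with a median of −0.08. Zrsr1 rests on 26 to 64 reads per library, and its interval in vehicle ran from 0.05 to 1.54.

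**Figure D4:**
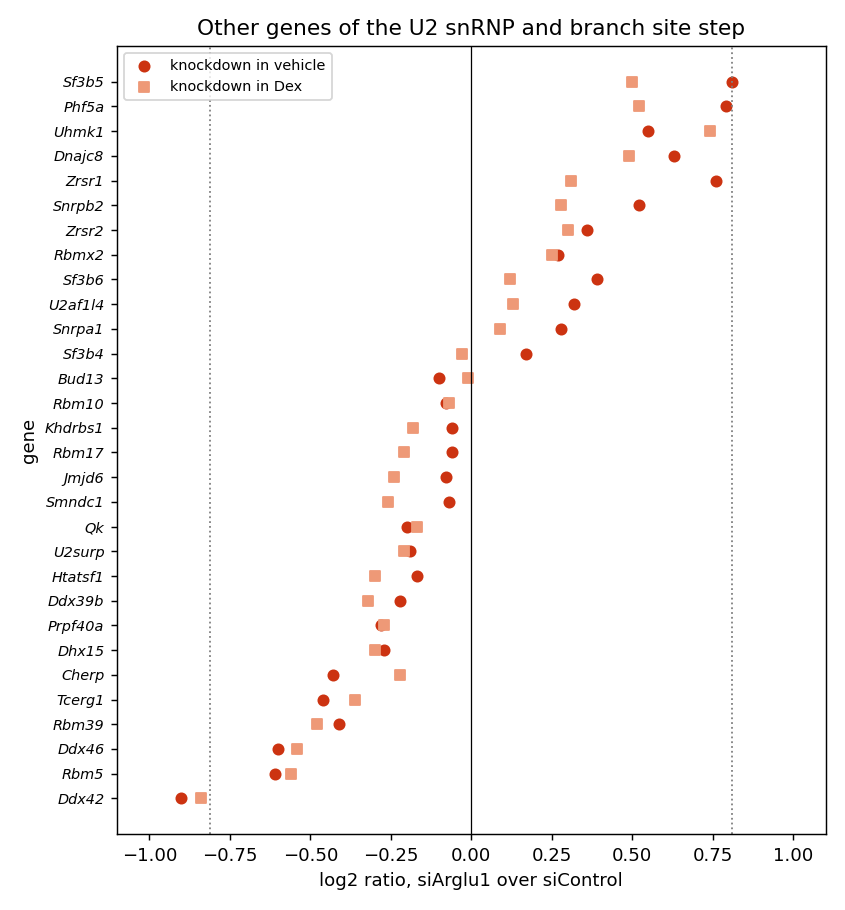
Log2 ratio of siArglu1 over siControl (horizontal axis) for 30 other genes of the U2 snRNP and branch site step (vertical axis, gene, ordered by the mean of both pairs), circles in vehicle and squares in Dex; dotted lines mark 0.81. Ddx42 lies past the line in both pairs, and Sf3b5 and Phf5a lie at the upper end.

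The exons that vary most within these genes are in U2af1, Puf60 and Sf1. The U2af1 gene holds 2 exons of 67 nt that lie one after the other and resemble each other, and are used in alternative mRNAs. Of 9 annotated transcripts 1 has the first only, 1 the second only and 2 have both, of which 1 is annotated as a target of nonsense-mediated decay. The submitters' notes name the mouse build mm9, in which the files place the first at chr17:31789447-31789513 and the second at chr17:31788591-31788657. Exons of the same length and spacing in GENCODE M21 (GRCm38) lie at chr17:31652502-31652568 and chr17:31651646-31651712 on the minus strand, and both are coding. They are shown because the encoded protein depends on which of them is used; capitals mark the 23 of 67 positions at which they differ (65.7% identical).
U2af1 first 67-nt exon: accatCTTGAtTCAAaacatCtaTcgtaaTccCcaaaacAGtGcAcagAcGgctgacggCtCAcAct
U2af1 second 67-nt exon: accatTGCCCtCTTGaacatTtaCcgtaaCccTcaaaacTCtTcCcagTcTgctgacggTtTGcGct
Puf60 and Sf1 each have a coding exon that was included less in siArglu1. The Puf60 exon is 51 nt long, a multiple of 3. The Sf1 exon of 76 nt, not a multiple of 3, lies at chr19:6368364-6368439 on the plus strand with the same positions in both builds, and 5 of 15 annotated Sf1 transcripts, all protein-coding, carry it. The Sf1 exon is shown because its inclusion was lower in both siArglu1 libraries; capitals mark the first and last 3 bases, next to the splice sites.
Sf1 76-nt exon: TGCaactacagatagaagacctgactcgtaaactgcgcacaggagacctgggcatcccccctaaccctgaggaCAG

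Splicing was compared by PSI (percent spliced in). For a cassette exon, it is the estimated share of transcripts across that position that include the exon. For an alternative 3′ (Alt3) or 5′ (Alt5) splice site, it is the site's share among the competing sites of its event. That is not a share of all transcripts of the gene. Of the 66 events, 64 had a PSI in all 4 libraries and enough reads, and 46 of these were at most 5 or at least 95 in every library at every site, that is, close to constant. A PSI between 10 and 90 throughout was seen in 8. The shares of all events in these classes were not computed, so neither count sets these genes apart from others. A difference of at least 15 PSI was reached by 1 of 64 events for knockdown in vehicle, where 1.96% of all 57183 events did, by none for knockdown in Dex (1.52% of all events) and for Dex in siControl (0.719%), and by 1 for Dex in siArglu1 (0.948%). At 10 PSI, 3 events passed in each knockdown pair, against 4.4% and 3.66% of all events.

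The first 67-nt exon of U2af1 was the more used, with PSI of 65 and 63.1 in siControl Veh and Dex and of 71.8 and 74.9 in siArglu1 Veh and Dex. The second was at 20.4, 15.6, 21.5 and 19.2. The first exon was higher in both siArglu1 libraries, by 6.80 PSI in vehicle and 11.76 in Dex, and the second was higher by 1.06 and 3.64. The share of the first in the sum of both was 76.1%, 80.2%, 77% and 79.6%, so the balance between them was no more different between siArglu1 and siControl than between Dex and Veh. An upstream U2af1 exon of 88 nt, present in 6 of the 9 transcripts, had PSI of 54.8, 55.2, 68.8 and 66.7, or differences of 13.99 in vehicle and 11.51 in Dex. All 3 exons belong to complex events, and reads on the 2 junctions of the 88-nt exon were unbalanced in every library by the table's own quality field. The same field marks a lesser imbalance for the second 67-nt exon in every library but siControl Veh.

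The 76-nt exon of Sf1 went from PSI of 96.5 and 97.1 in siControl Veh and Dex to 82.8 and 86.6 in siArglu1 Veh and Dex. The differences were −13.78 and −10.47, under the 15 PSI used; it was picked out after its values were seen, since siControl PSI exceeded 90. The event is simple, with balanced junctions and the highest coverage score in every library. The 205-nt exon of Sf1, coding and in 1 transcript, was at PSI of 32.05, 29.93, 36.05 and 33.45, with unbalanced junctions. An Alt3 site of Sf1 that adds 5 nt was used at 88, 88.1, 86.2 and 86.6 PSI on 575 to 1057 junction reads, with 95% intervals that overlap.

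The 51-nt exon of Puf60 had PSI of 43.3, 40.8, 35.8 and 32.7, lower in both siArglu1 libraries by 7.54 and 8.15, with balanced junctions. Among the SF3 genes, the 48-nt exon of Sf3a3 stayed between 84.4 and 86.4 in all libraries. An Alt5 site of Sf3b3 that adds 28 nt was likewise steady, at 84.1, 83.5, 82.8 and 85.2 PSI. A 29-nt exon of Sf3b3 at chr8:113353419-113353447 in mm9, which has no match in GENCODE M21, was included rarely, at 6.77, 8.05, 3.05 and 3.4 PSI. Of the remaining events, an Alt3 site of Sf3a2 that adds 19 nt had PSI of 5.62, 7.45, 10.3 and 6.34 on 388 to 752 junction reads. An Alt5 site of U2af2 that adds 4 nt had PSI of 4.86 and 5.72 in siControl Veh and Dex and 0 in both siArglu1 libraries, on 17 to 61 reads; the 95% Clopper-Pearson intervals of these zeros reach 14.2 and 5.87 PSI.

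The one event past 15 PSI is an Alt3 site that lengthens this rare Sf3b3 exon by 129 nt. Its PSI was 7.28 on 45 junction reads in siControl Veh (95% Clopper-Pearson interval 1.4 to 18.3), 13.3 on 61 reads in siControl Dex (5.84 to 24.2), 32.6 on 23 reads in siArglu1 Veh (13.2 to 52.9) and 13 on 26 reads in siArglu1 Dex (2.45 to 30.2). The value in siArglu1 Veh was the highest, but the intervals of all 4 libraries overlap. The knockdown difference of 25.31 PSI in vehicle was −0.32 in Dex. The event past 15 PSI for Dex in siArglu1 is this same one, at −19.57. Both differences rest on the siArglu1 Veh value, and both siArglu1 libraries had a coverage score of LOW here. The exon it lengthens had a PSI of at most 8.05 in any library.

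**Figure D5:**
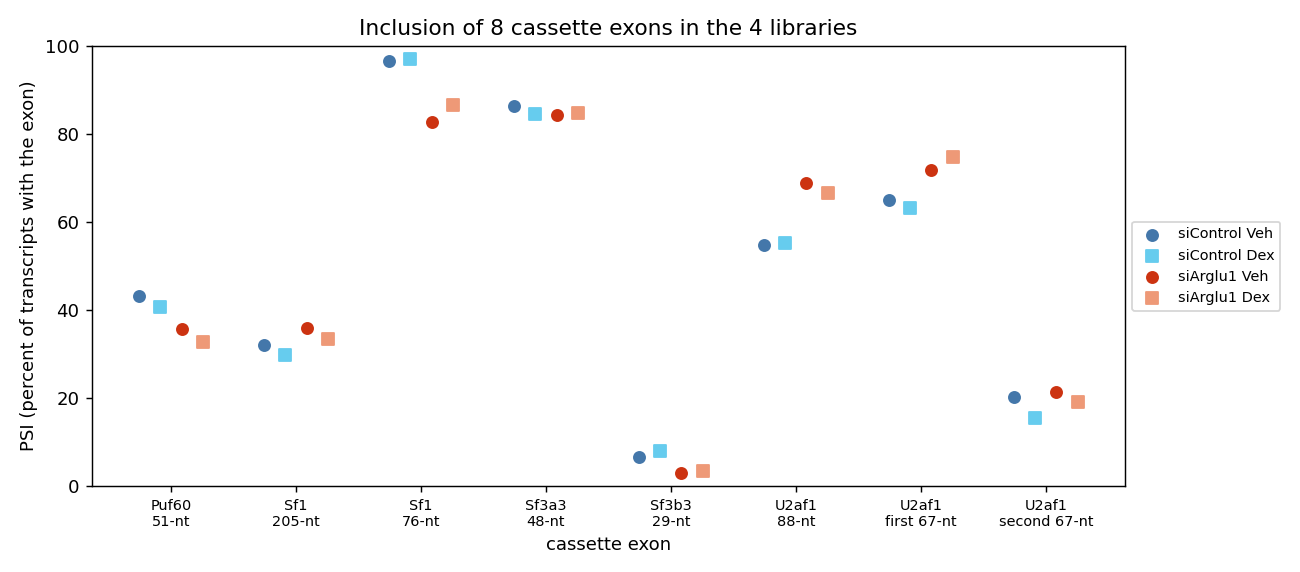
PSI (vertical axis, 0 to 100) of 8 cassette exons of the factors (horizontal axis) in the 4 libraries, 1 point per library; no error is shown since the cassette table gives no read counts. The siArglu1 points lie apart from the siControl points for the 51-nt exon of Puf60, the 76-nt and 205-nt exons of Sf1, the 29-nt exon of Sf3b3 and the 88-nt and first 67-nt exons of U2af1, and together for the 48-nt exon of Sf3a3.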

How the data were processed

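For each of the 4 groups, 1 pooled library was analysed. The authors deposited raw read counts per gene and cRPKM, an RPKM corrected for mappability, in 1 table, and the PSI of cassette exons, Alt3 and Alt5 sites as a percent in 3 others, with coverage scores (other fields) in words. The submitters' processing notes name Bowtie and mm9, and the study names vast-tools; for neither tool is a version given in the sources used here. The 2 columns of the authors' own Dex over Veh ratios were not used. Blank reads were taken as 0.

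Counts were scaled with TMM factors of edgeR 4.0.16 in R 4.3.3 (limma 3.58.1), with a prior count of 1 on the log2 CPM scale, for genes with at least 75 reads over the 4 libraries. Ratio intervals are exact, conditioning on the reads of both libraries at the 95% level. No test was made within a pair of single libraries. Alternatives were total reads, DESeq2 1.42.0 size factors, no read minimum, a prior count of 0.25, cRPKM with a pseudocount of 0.1, a lowess trend on length removed (span 0.3, 3 iterations), other thresholds, and the additive edgeR quasi-likelihood model with Benjamini-Hochberg adjustment. Genes of like length lie within 0.25 on the log2 scale.

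Events were kept where every library had a PSI and at least 3 scored LOW or higher (20 or more junction reads, where reads are given). Sites of one Alt3 or Alt5 event counted once, without the reference site. Named events reached 15 PSI in any pair or lay between 10 and 90 PSI throughout, and named partner genes passed 0.81 in both knockdown pairs; other genes and events named were picked after their values were seen. The factors and lists were chosen with earlier results of these data known. Exon sequences come from GENCODE M21 transcripts. The scripts were tested on simulated data. The sequence of 1 exon and 1 marker gene are not reported here.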

Additional observations from a re-analysis of the deposited data

Results flagged for a closer look

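U2af1 had a log2 ratio of siArglu1 over siControl of 0.10 in vehicle and −0.08 in Dex, and Puf60 had 0.08 in vehicle and −0.07 in Dex, so each differed in opposite directions in the 2 pairs, with counting intervals that exclude 0. Puf60 also had 0.03 (0.00 to 0.06) for Dex in siControl and −0.12 (−0.15 to −0.10) for Dex in siArglu1, the first with an interval that begins at about 0. With 1 library per group, the difference between the pairs was not tested. With the trend on length removed, the knockdown ratios of both genes were below 0 in both pairs, at −0.22 and −0.23 for U2af1 and at −0.07 and −0.16 for Puf60. The Dex ratios of Puf60 were then 0.02 in siControl and −0.06 in siArglu1.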

How the results depend on the processing

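No paired analysis was possible because each group has 1 library, so no replicates can be paired; the additive model compares the siRNAs within each treatment. The count of 0 factors past the size used in both knockdown pairs and both Dex pairs was also 0 with total reads, DESeq2 size factors, no read minimum, a prior count of 0.25, cRPKM, the length trend removed and the other size. The additive model called 5 of the 10 factors and 20 of the 30 partner genes for knockdown, and 61.6% of all genes. For partner genes, 1 was past 0.81 in each knockdown pair, 0 at a size of 1, and 2 in vehicle with the length trend removed. For member events, the counts past 15 PSI were 1 for knockdown in vehicle, 0 for knockdown in Dex, 0 for Dex in siControl and 1 for Dex in siArglu1. Without a coverage minimum they were 2, 2, 1 and 3, the added events being U2af1 Alt5 sites with the lowest score; of all events, 7.04%, 6.45%, 5.64% and 6.01% passed in the same order. Where every library had to score OK or higher, all were 0. Of all events, 1.22%, 1%, 0.23% and 0.237% passed under this rule, in the same order. At 10 PSI the knockdown counts were 3 and 3, against 4.4% and 3.66% of all events. At 25 PSI that of Dex in siArglu1 was 0, against 0.187% of all events. Of 40 log2 ratios of single factors, 9 changed sign with the length trend removed and 3 with total reads or cRPKM, none of them past the size used. The scaling moved the median of all genes by at most 0.03. The spread between cultures is not known here, and the cassette table gives no reads, so the precision of its PSI is unknown.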
